A study of Mus musculus with 6 samples.

Results

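The cytosolic ribosomal proteins are the protein subunits of the ribosome that translates nuclear mRNAs. Their genes were chosen by name: symbols of the Rpl and Rps families, the P stalk genes (Rplp0 to Rplp2) and Rpsa, leaving out Rps6 kinases, Rps19bp1 and symbols marked as pseudogenes. The rule found 86 of the 14408 genes listed, 52 of the large subunit and 34 of the small subunit. Expression was measured by RNA sequencing of polyadenylated RNA in 6 libraries, 3 from mice given L-proline and 3 from mice given PBS. L-proline mice were male C57BL/6J animals, 8 weeks old at the start, kept for 8 to 12 weeks on high-fat food and on water holding L-NAME, which blocks nitric oxide synthesis, at 0.5 g/L, and then given intraperitoneal L-proline at 300 mg/kg per day for 4 to 8 weeks. PBS mice were of the same sex, strain and starting age, had the same diet and L-NAME, and were injected with PBS in place of L-proline. The diet with L-NAME models heart failure with preserved ejection fraction, and both groups carry it, so neither group is an untreated one. The question of the study was how L-proline alters the transcriptome of these hearts.

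The large subunit forms peptide bonds and holds the exit tunnel of the growing chain, and the small subunit binds the mRNA and checks codons against tRNAs. Ribosomal protein mRNAs are among the most abundant in most cells, and nearly all begin with a 5′ terminal oligopyrimidine (TOP) tract, a C followed by an unbroken run of C and T through which mTORC1 and LARP1 adjust their translation. Several of these proteins also act away from the ribosome: RPL5 and RPL11 bind MDM2, the ubiquitin ligase of p53, when ribosome assembly is disturbed.

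To show what these transcripts share at their starts, 30-base windows were read from the RefSeq promoter table for GRCm38.p6, 15 bases on each side of the annotated start. The submitters' notes name GRCm39, so the coordinates apply to GRCm38.p6 alone. The table matched 65 of the 86 genes by symbol. Of the matched genes, the first 7 below had the smallest p among those that rose and the last 4 had the lowest fold changes, so that starts at both ends of the range can be read side by side. Capitals mark the longest run of at least 5 bases that opens with C and continues with C or T, and a sequence with no capitals holds none.
Rpl13a, chr7:45128731-45128760, minus strand: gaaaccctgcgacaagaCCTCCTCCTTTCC
Rpl9, chr5:65391417-65391446, minus strand: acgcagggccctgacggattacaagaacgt
Rpl15, chr14:18270972-18271001, minus strand: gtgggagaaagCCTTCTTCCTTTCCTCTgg
Rps27l, chr9:66946071-66946100, plus strand: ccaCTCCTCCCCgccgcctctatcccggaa
Rpl27a, chr7:109519180-109519209, plus strand: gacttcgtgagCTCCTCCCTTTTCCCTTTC
Rps19, chr7:24884577-24884606, plus strand: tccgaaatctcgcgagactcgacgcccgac
Rpl35a, chr16:33056438-33056467, plus strand: gcggggcgtgcgtcccacaaggccgcgcgg
Rpl32l, chr10:20208424-20208453, plus strand: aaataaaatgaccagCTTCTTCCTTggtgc
Rpl36al, chr12:69184053-69184082, minus strand: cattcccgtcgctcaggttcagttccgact
Rpl38, chr11:114668565-114668594, plus strand: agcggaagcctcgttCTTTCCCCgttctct
Rps3a1, chr3:86142654-86142683, minus strand: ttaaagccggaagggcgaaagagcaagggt

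In Rpl32l and Rpl38 the run began at the annotated first base, and in Rpl13a 2 bases after it. A run of at least 8 bases was found for 28 of 65 ribosomal protein genes (43.1%), against 12.0% of all tested genes in the table and 10.8% of all genes in it. A gene was counted if any of its promoter entries held the run or letters sought, while each sequence above is the gene's first entry. Such a run was present in 7 of 15 matched genes that were higher in L-proline libraries (46.7%) and in 19 of 48 that did not pass the test (39.6%). The run is thus found on both sides of the call, and it is a description of the letters around an annotated start, which can differ from the start used in this tissue. Over the full promoter entries (250 bases before to 50 after the start, both strands), CCGGAAG, the core of ETS family sites, was present in 38.5% of ribosomal protein genes and 21.9% of tested genes. The YY1 core GCCATC was present in 26.2% and 17.9%, the TATA box letters TATAAA in 12.3% and 8.30%, and the palindrome TCTCGCGAGA in 9.23% and 1.33%.

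Ribosomal protein mRNAs were slightly higher in L-proline libraries than in PBS libraries, with the large subunit ahead of the small one. Of the 85 genes tested, 21 rose, 1 fell and 63 did not pass (limma on log2(FPKM + 1), Benjamini-Hochberg adjusted p under 0.05 over 10500 genes; FPKM is fragments scaled to gene length and to the library total). These are 24.7% rising and 1.18% falling of the ribosomal protein genes, against 7.50% rising and 12.1% falling among all tested genes. Rises were small, from a log2 fold change of 0.21 (Rpl23) to 0.51 (Rpl13a), and 81 of 85 genes had a positive value whether or not they passed (64 with quantile normalization and 84 with median-of-ratios scaling). The median log2 fold change was 0.18 for the ribosomal protein genes and -0.06 for all tested genes. The 3 L-proline values all lay above the 3 PBS values for 49 of 85 genes and all below for 1, against 16.0% and 24.0% of all tested genes. In RNA pooled from many cells, more cells of a type and more RNA per cell cannot be told apart. Whether the 3 libraries of a group stem from different mice is not stated in the labels, so the p-values rest on a spread between libraries that may be technical.

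The number of calls depended on single libraries. Without PBS 3 only Rpl13a still passed upward (1 of 85, with 3.45% of all genes rising), without PBS 1 the count was 2 (3.66%), without L-proline 2 it was 7 (5.30%) and without L-proline 3 it was 10 (5.94%). The median log2 fold change of the 85 genes stayed between 0.15 and 0.22 when any 1 library was left out, but it was 0.07 with quantile normalization and 0.24 with median-of-ratios scaling. Across all genes 788 rose and 1268 fell, a split that turned to 993 rising and 919 falling with median-of-ratios scaling and to 1079 and 1015 with quantile normalization, and the ribosomal protein counts were then 23 rising and 1 falling, and 24 rising and 2 falling.

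**Figure D1:**
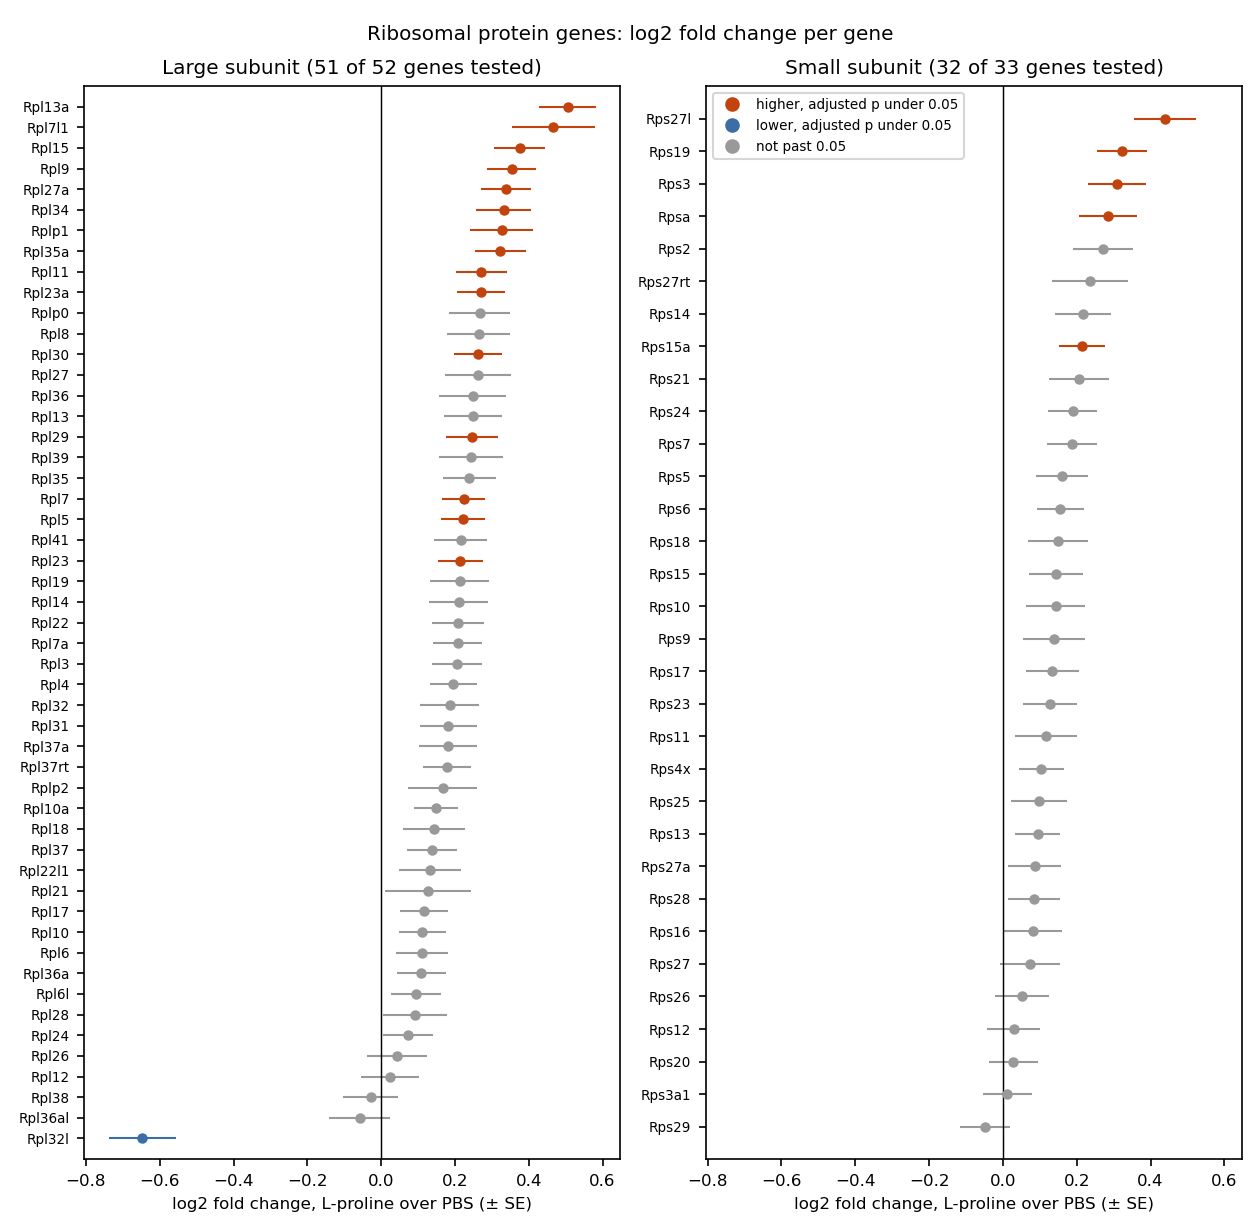
Log2 fold change of single tested genes, L-proline over PBS, with its standard error, for 51 of 52 large subunit genes (left) and 32 of 33 small subunit genes (right), coloured by call. Most points lie right of 0 in both panels, and Rpl32l stands alone on the left at -0.65.

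The libraries were of similar depth, with totals of 34990473 to 37498030 fragments recovered from the FPKM values. L-proline 3 stood apart from both groups in that the listed genes held 96.1% of its fragments, against 98.6% to 98.8% in the other libraries. Some cell type markers, given below, moved with the groups. The tissue is labelled as heart, yet 7 of 13 cardiomyocyte markers were not among the listed genes. Of the 6 listed ones, 5 (Myh7, Myl2, Tnni3, Ttn and Ryr2) were near 0. Tnnt2 lay between 13.6 and 16.3 FPKM in L-proline libraries and between 31.4 and 32.9 FPKM in PBS libraries. Listed fibroblast markers (8 of 10) summed to between 3074 and 3462 FPKM in L-proline libraries and between 2302 and 2389 FPKM in PBS libraries, mostly Col3a1 and Col1a2. Postn and Gsn overlapped between the groups, and Pdgfra went the other way, at 5.86 to 6.12 FPKM in L-proline libraries and 7.32 to 8.22 FPKM in PBS libraries. Pericyte and smooth muscle markers (8 of 10) summed to between 852 and 1050 FPKM in L-proline libraries. PBS libraries overlapped that range, at 944 to 1059 FPKM. These sums were mostly Acta2, at 743 to 914 FPKM in L-proline libraries and 813 to 909 FPKM in PBS libraries. Myh11, Rgs5 and Vtn were near 0. Of these markers only Tagln did not overlap, at 54.63 to 74.98 FPKM in L-proline libraries and 77.62 to 92.63 FPKM in PBS libraries. The 5 listed endothelial markers stayed under 1 FPKM each. Listed cardiomyocyte and endothelial markers were thus mostly under 1 FPKM. The tissue label is kept here, but the cells that gave the RNA are uncertain. Sums in L-proline and PBS libraries were 21.8 to 25.4 and 19.7 to 22.2 FPKM for macrophage markers (4 of 8, with Csf1r near 0), 19.2 to 42.2 and 17.4 to 27.4 FPKM for erythroid markers (2 of 5), and 26.3 to 27.5 and 51.2 to 52.6 FPKM for mesothelial markers (4 of 5). Lymphocyte markers (3 of 8) summed to 69.2 to 96.1 FPKM in L-proline libraries and 31.5 to 32.1 FPKM in PBS libraries, nearly all of it Ccl5, with Cd8a and Cd79a at or near 0. The part of these markers in the ribosomal protein difference was not tested.

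Together the 86 genes took 5.43%, 5.73% and 6.00% of all fragments in L-proline 1, 2 and 3, against 4.92%, 5.28% and 4.76% in PBS 1, 2 and 3, a mean of 5.72% ± 0.283 in L-proline and 4.99% ± 0.265 in PBS (SD, n = 3 each). The groups did not overlap, although the lowest L-proline library and the highest PBS library were close. The genes kept a common order of libraries: L-proline 3 was the highest L-proline library for 66 of 85 genes and L-proline 1 the lowest for 70, and PBS 2 was the highest PBS library for 79 and PBS 3 the lowest for 71. Relative to each gene's own mean over the 6 libraries, the median gene deviated by 0.02, 0.10 and 0.16 on the log2 scale in L-proline 1, 2 and 3, and by -0.11, -0.01 and -0.15 in PBS 1, 2 and 3. The spread within a group was thus shared across most of the genes, so the 85 genes are not 85 separate observations of the groups.

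**Figure D2:**
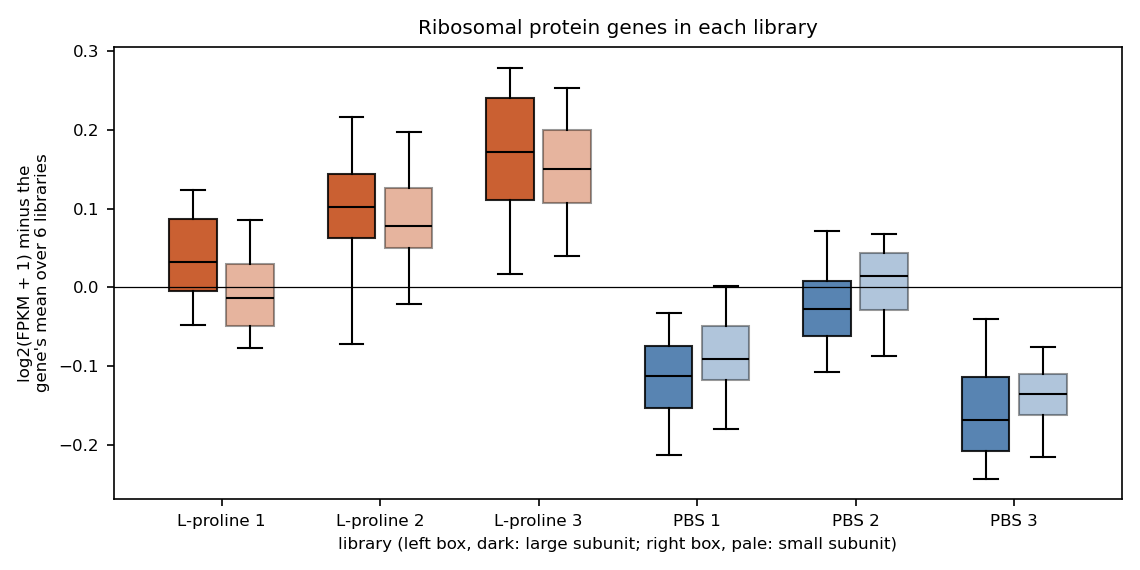
Deviation of each gene from its own mean over 6 libraries on the log2(FPKM + 1) scale, as boxes (quartiles and median) with whiskers from the 5th to the 95th percentile, for large (dark) and small (pale) subunit genes in each library. Both subunits shift together, with L-proline 3 highest and PBS 3 lowest, and the nearest boxes of the groups are those of L-proline 1 and PBS 2.

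The subunits differed in size of shift. Of 52 large subunit genes 16 rose (30.8%) and 1 fell, with a median log2 fold change of 0.21, and of 33 small subunit genes 5 rose (15.2%) with a median of 0.14. Among all tested genes 7.50% rose and 12.1% fell. None of the small subunit genes fell by limma, by limma voom on the recovered fragments or at an unadjusted p under 0.05 (0 genes each), but Rps29 passed downward with quantile normalization (-0.23; limma, adjusted p = 0.00419) and with the length or level trend removed (-0.20 and -0.13; adjusted p = 0.0123 and 0.0365). All 3 L-proline values lay above all PBS values for 36 of 52 large subunit genes and 13 of 33 small subunit genes. The same held for 16.0% of all tested genes. The ratio of summed large to summed small subunit FPKM, which a scaling of whole libraries leaves untouched, was 1.73, 1.71 and 1.73 in L-proline 1, 2 and 3 and 1.62, 1.62 and 1.63 in PBS 1, 2 and 3. For this ratio the gap between the groups was wider than the range within either group. The mean log2(FPKM + 1) of large subunit genes minus that of small subunit genes weighs each tested gene equally. It was -0.221, -0.255 and -0.251 in L-proline 1, 2 and 3 and -0.280, -0.282 and -0.278 in PBS 1, 2 and 3. The groups did not overlap there either, but the gap between them was narrower than the range within L-proline. The large subunit median exceeded the small one by 0.07 on the log2 scale, and by 0.04 to 0.08 when any 1 library was left out. The difference between the subunits is described here and was not tested.

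Among the rising large subunit core proteins, the smallest p-values were those of Rpl13a, Rpl9 and Rpl15. Rpl13a, which encodes a protein of the large subunit that in human monocytes is also released to silence inflammatory mRNAs as part of the GAIT complex, was at 1058, 1161 and 1194 FPKM in L-proline 1, 2 and 3, against 784, 860 and 759 FPKM in PBS 1, 2 and 3. Its groups lay far apart, it rose by 0.51 ± 0.08 (log2 fold change ± SE; limma, adjusted p = 0.00419), and it passed in each of the 6 fits that left out a library. Rpl9, a core protein of the subunit, was at 790, 810 and 862 FPKM in L-proline libraries and 648, 664 and 613 FPKM in PBS libraries (0.35 ± 0.07; limma, adjusted p = 0.00878). It missed the threshold in 1 of the 6 fits without a library. Rpl15, which sits deep in the rRNA fold of the large subunit, was at 268, 285 and 274 FPKM in L-proline libraries and 205, 229 and 204 FPKM in PBS libraries (0.38 ± 0.07; limma, adjusted p = 0.00918). It passed in 4 of the 6 fits without a library. In all 3 of these genes the lowest L-proline library was well above PBS 2, the highest PBS library.

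Rpl27a, another core protein, was at 543, 553 and 598 FPKM in L-proline libraries and 445, 466 and 428 FPKM in PBS libraries (0.34 ± 0.07; limma, adjusted p = 0.0115). Rpl35a, one of the genes mutated in human Diamond-Blackfan anaemia, an inherited failure of red cell production, was at 846, 865 and 941 FPKM in L-proline libraries and 729, 720 and 670 FPKM in PBS libraries (0.32 ± 0.07; limma, adjusted p = 0.0160). Both kept L-proline 3 highest and PBS 3 lowest, with no overlap of the groups. Rpl34 was at 200, 216 and 227 FPKM in L-proline libraries and 170, 179 and 161 FPKM in PBS libraries (0.33 ± 0.07; limma, adjusted p = 0.0179). The assignment of fragments to Rpl34 is uncertain because the pseudogene Rpl34-ps1 was listed at a higher level, 245, 271 and 293 FPKM in L-proline libraries and 219, 229 and 207 FPKM in PBS libraries, with the same order of libraries. Rpl23a, whose protein lies at the mouth of the exit tunnel where chaperones and the signal recognition particle dock, was at 1574, 1593 and 1728 FPKM in L-proline libraries and 1357, 1385 and 1314 FPKM in PBS libraries (0.27 ± 0.06; limma, adjusted p = 0.0243). Of the 6 fits without a library, Rpl27a and Rpl35a passed in 4 each and Rpl34 and Rpl23a in 3 each.

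Smaller rises followed. Rpl30, Rpl7 and Rpl29, all large subunit proteins, rose by 0.26 ± 0.06, 0.22 ± 0.06 and 0.25 ± 0.07 (limma, adjusted p = 0.0256, 0.0334 and 0.0433). They passed in 2, 1 and 1 of the 6 fits without a library and in 9, 6 and 10 of the 11 other alternatives, and Rpl7 was at 0.06 with quantile normalization (limma, adjusted p = 0.306; 0.00374 to 0.306 over the alternatives). Rpl7 was nearly flat within L-proline, at 1416, 1423 and 1415 FPKM, against 1182, 1262 and 1199 FPKM in PBS libraries. Rpl29 was listed far below its subunit neighbours, at 19.5, 20.4 and 20.1 FPKM in L-proline libraries and 16.2, 17.5 and 16.4 FPKM in PBS libraries, and Rpl21 was lower still at 9.24 ± 1.57 FPKM in L-proline and 8.31 ± 0.133 FPKM in PBS (SD, n = 3 each; 0.13 ± 0.12; limma, adjusted p = 0.471). Both have many processed copies in the mouse genome, so fragments may have been lost or shared in counting, and their levels are uncertain. Rpl35 just missed the threshold, at 1222 ± 60.3 FPKM in L-proline and 1036 ± 63.2 FPKM in PBS (0.24 ± 0.07; limma, adjusted p = 0.0523).

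All 3 genes of the list that ties the large subunit to p53 rose, against 30.8% of large subunit genes and 7.50% of all tested genes. The list is short and was chosen with earlier results of these data known. Its count therefore does not stand for ribosomal proteins with a tie to p53 in general. Rpl5 and Rpl11 encode the proteins that bind 5S rRNA, are placed into the subunit as one particle, and bind MDM2 when they are not used. Rpl5 was at 464, 471 and 468 FPKM in L-proline libraries and 405, 415 and 383 FPKM in PBS libraries (0.22 ± 0.06; limma, adjusted p = 0.0377). Rpl11 was at 374, 385 and 391 FPKM in L-proline libraries and 309, 342 and 302 FPKM in PBS libraries (0.27 ± 0.07; limma, adjusted p = 0.0298). Rpl23, whose protein also binds MDM2, was at 748, 731 and 715 FPKM in L-proline libraries and 639, 649 and 603 FPKM in PBS libraries (0.21 ± 0.06; limma, adjusted p = 0.0438). For each of these genes every L-proline library was above every PBS library, but Rpl5 passed in 1, Rpl11 in 2 and Rpl23 in 0 of the 6 fits without a library, and Rpl23 in 5 of the 11 other alternatives.

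The P stalk is the flexible arm of the large subunit that recruits elongation factors, with Rplp0 as its base and Rplp1 and Rplp2 as its acidic arms. Rplp1, the second most abundant of the 86 transcripts per length, was at 2780, 3094 and 3308 FPKM in L-proline libraries and 2352, 2619 and 2339 FPKM in PBS libraries, and it rose by 0.33 ± 0.08 (limma, adjusted p = 0.0318). It passed in 2 of the 6 fits without a library. Rplp0 was at 1824, 2014 and 2149 FPKM in L-proline libraries and 1618, 1782 and 1571 FPKM in PBS libraries, without passing (0.27 ± 0.08; limma, adjusted p = 0.0581). Rplp2 was at 991, 999.96 and 1237 FPKM in L-proline libraries and 959, 968 and 935 FPKM in PBS libraries, and its mean rested on L-proline 3 (0.17 ± 0.09; limma, adjusted p = 0.236). In all 3 stalk genes every L-proline library was above every PBS library. The same held for 36 of 52 large subunit genes and for 16.0% of all tested genes.

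In the small subunit, Rps19 had the smallest p-value of the core proteins. It is needed for maturation of the small subunit rRNA and is the gene most often mutated in human Diamond-Blackfan anaemia. Rps19 was at 740, 749 and 815 FPKM in L-proline libraries and 605, 646 and 591 FPKM in PBS libraries (0.32 ± 0.07; limma, adjusted p = 0.0152). Rps3, which lines the mRNA entry channel, was at 616, 672 and 724 FPKM in L-proline libraries and 533, 569 and 517 FPKM in PBS libraries (0.31 ± 0.08; limma, adjusted p = 0.0288). Rpsa, also known as the laminin receptor, was at 1037, 1106 and 1159 FPKM in L-proline libraries and 876, 987 and 851 FPKM in PBS libraries (0.28 ± 0.08; limma, adjusted p = 0.0402). None of these overlapped between groups, with PBS 2 the nearest to the L-proline range in each. Rps19 passed in 4, Rps3 in 2 and Rpsa in 2 of the 6 fits without a library. Rps15a was at 93.9, 90.2 and 96.3 FPKM in L-proline libraries and 80.3, 83.0 and 77.9 FPKM in PBS libraries (0.21 ± 0.06; limma, adjusted p = 0.0486), lost its call in every fit without a library, and has a listed pseudogene, Rps15a-ps5, at a mean of 22.5 FPKM. Rps2, at 220, 254 and 256 FPKM in L-proline libraries and 199, 213 and 192 FPKM in PBS libraries, fell just outside the threshold (0.27 ± 0.08; limma, adjusted p = 0.0505).

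**Figure D3:**
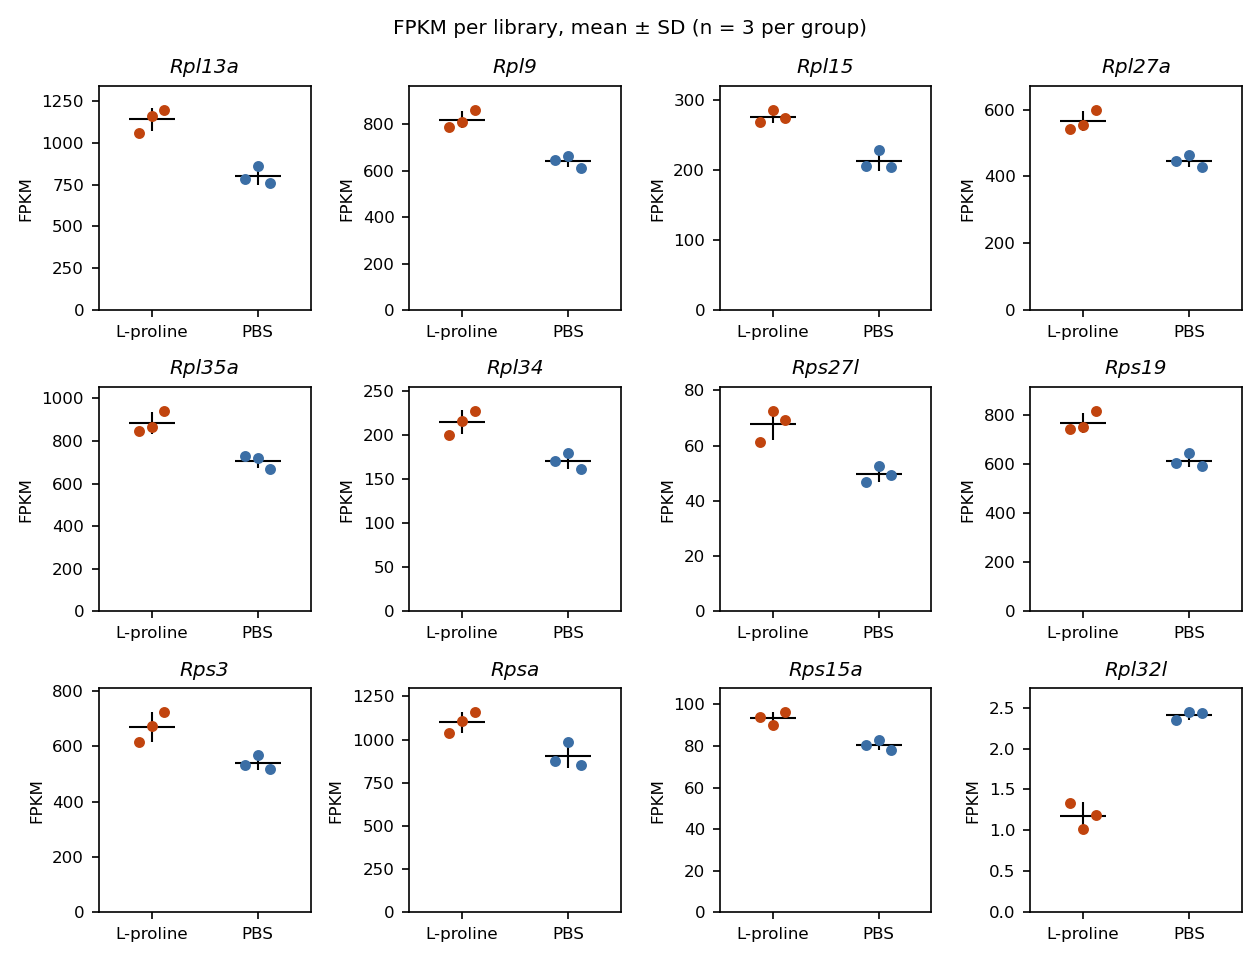
FPKM in each library (points) with mean and SD (bars; n = 3 per group) for 11 genes that rose and for Rpl32l, L-proline left of PBS, each axis starting at 0. In every panel the groups do not overlap; Rpl32l is the panel in which L-proline is lower.

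Among paralogs, related copies of ribosomal protein genes, 6 of 12 looked for were listed, and 2 of the 6 rose (33.3%). Of all tested ribosomal protein genes 24.7% rose, and of all tested genes 7.50%. Rps27l, a paralog of Rps27 that p53 induces in human cells, was at 61.5, 72.6 and 69.3 FPKM in L-proline libraries and 46.9, 52.8 and 49.3 FPKM in PBS libraries (0.44 ± 0.08; limma, adjusted p = 0.00981). Its standard counterpart Rps27 stood at 1208 ± 95.6 FPKM in L-proline and 1147 ± 70.6 FPKM in PBS (SD, n = 3 each) with overlapping groups (0.07 ± 0.08; limma, adjusted p = 0.549); Rps27 was chosen as a comparison after its values were seen. Rpl7l1, related to Rpl7, was at 50.7, 64.0 and 58.7 FPKM in L-proline libraries and 37.1, 46.8 and 40.7 FPKM in PBS libraries (0.47 ± 0.11; limma, adjusted p = 0.0243). In both paralogs L-proline 2 was the highest library and PBS 1 the lowest, an order unlike that of most of the set, and both stood far below Rps27 and Rpl7 in FPKM. Rps27l passed in 4 and Rpl7l1 in 2 of the 6 fits without a library.

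The other listed paralogs did not pass. Rpl37rt, Rps27rt and Rpl22l1, a paralog of Rpl22, stood at 0.18 ± 0.06, 0.24 ± 0.10 and 0.13 ± 0.08 on the log2 scale (limma, adjusted p = 0.0902, 0.145 and 0.289). Rpl6l, which the RefSeq gene table calls a pseudogene and the naming rule keeps, stood at 0.09 ± 0.07 (limma, adjusted p = 0.360). Rpl37rt and Rps27rt are near copies of Rpl37 and Rps27, so the split of fragments between each pair is uncertain. Rpl36al, close in sequence to Rpl36a, was at 228, 266 and 236 FPKM in L-proline libraries and 242, 273 and 245 FPKM in PBS libraries, overlapping throughout (-0.06 ± 0.08; limma, adjusted p = 0.650), and its value turned to 0.00 with median-of-ratios scaling and 0.06 with sample weights. Rpl3l, the paralog known from striated muscle, was not among the listed genes.

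Rpl32l was the only one of the 85 genes that fell. It was at 1.33, 1.01 and 1.19 FPKM in L-proline libraries, from 29, 21 and 26 fragments, against 2.34, 2.45 and 2.44 FPKM in PBS libraries, from 52, 52 and 53 fragments. PBS values were tight and every L-proline value was far below them (-0.65 ± 0.09; limma, adjusted p = 0.00304), and the call held in each of the 6 fits without a library. The added 1 FPKM shrinks this value, which was -0.98 with a pseudocount of 0.1 and -1.02 with voom on fragments. Rpl32l is the least abundant tested gene of the set, and Rpl32, the standard gene of that name, chosen as a comparison after its values were seen, was at 1619 ± 123 FPKM in L-proline and 1423 ± 89.9 FPKM in PBS (SD, n = 3 each; 0.19 ± 0.08; limma, adjusted p = 0.140). Whether fragments were shared between them in counting could not be checked, so the level of Rpl32l is uncertain. Rps23rg1, a retroposed copy of Rps23, averaged 0.192 FPKM and was not tested, with 13, 22 and 1 fragments in L-proline libraries and 2, 24 and 5 fragments in PBS libraries.

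Among abundant members, 15 of 70 genes at 300 FPKM and over rose (21.4%), against 24.7% of the whole set. The share was 21.3% for other tested genes at that level and 7.50% for all tested genes. Rpl41, which encodes one of the shortest known proteins, was the highest at 3508 ± 166 FPKM in L-proline and 3023 ± 187 FPKM in PBS (SD, n = 3 each; 0.22 ± 0.07; limma, adjusted p = 0.0723), and its value turned to -0.06 with quantile normalization. Rpl8, a core protein, and Rpl39, which lines the exit tunnel, stood at 0.26 ± 0.08 and 0.24 ± 0.09 on the same scale (limma, adjusted p = 0.0638 and 0.0860). Among the most abundant small subunit genes, Rps14 stood at 0.22 ± 0.08 (limma, adjusted p = 0.0807). Rps15 and Rps23, which lie near the decoding centre, had log2 fold changes of 0.14 ± 0.07 and 0.13 ± 0.07 (limma, adjusted p = 0.196 and 0.254), which turned to -0.01 and -0.03 with quantile normalization. Rps29 was at 1396, 1468 and 1535 FPKM in L-proline libraries and 1492, 1589 and 1467 FPKM in PBS libraries, overlapping (-0.05 ± 0.07; limma, adjusted p = 0.636); with quantile normalization it passed downward at -0.23 and with median-of-ratios scaling it turned to 0.01.

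Apart from Rpl32l, the genes with the lowest fold changes had overlapping groups, and the direction of those below turned under another scaling. Rpl38, known for its part in translating Hox mRNAs in mouse embryos, was at 312, 304 and 344 FPKM in L-proline libraries and 340, 334 and 305 FPKM in PBS libraries (-0.03 ± 0.07; limma, adjusted p = 0.814), and at 0.03 with median-of-ratios scaling. Rpl12 was at 1111 ± 86.2 FPKM in L-proline and 1091 ± 58.2 FPKM in PBS (SD, n = 3 each; 0.02 ± 0.08; limma, adjusted p = 0.847), and at -0.12 with quantile normalization and -0.02 with equal FPKM sums. Rps3a1, Rps12 and Rps20 had log2 fold changes of 0.01, 0.03 and 0.03, which turned to -0.05, -0.03 and -0.03 with quantile normalization and to -0.03, -0.02 and -0.02 with equal FPKM sums.

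Ribosomal proteins whose names fall outside the rule were looked at as well. Rack1, the signalling scaffold of the small subunit, had a mean of 1273 ± 94.5 FPKM in L-proline and 1168 ± 82.4 FPKM in PBS (SD, n = 3 each; 0.12 ± 0.08; limma, adjusted p = 0.314), and Fau, a fusion that yields a small subunit protein, at -0.07 ± 0.08 (limma, adjusted p = 0.568).

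Gene length and level moved with the fold change in all genes, and ribosomal protein genes are short and abundant. Lengths were recovered from the FPKM values. Among tested genes outside the set, the median log2 fold change was 0.11 at 300 to 699 bases, where 21.4% rose, and -0.12 at 5000 bases and over, where 3.88% rose. The 36 ribosomal protein genes of 300 to 699 bases had a median of 0.13 and 5 of them rose (13.9%), below the share of other genes of that length. The 15 of 1500 to 2999 bases had a median of 0.22 and 8 rose (53.3%), against -0.02 and 9.41% of other genes of that length. At 300 FPKM and over, 15 of 70 ribosomal protein genes rose (21.4%), against 26 of 122 other genes (21.3%). For genes that were both under 1000 bases and at 100 FPKM or over, 7 of 52 ribosomal protein genes (13.5%) and 26 of 126 others (20.6%) rose, with medians of 0.15 and 0.11. The share of calls among short, abundant ribosomal protein genes was thus not above that of other short, abundant genes. With the length trend of the other genes removed in each library, the median of the 85 genes was 0.12, with 31 rising and 2 falling, while 11.2% of all tested genes rose. With the level trend removed it was 0.12, with 25 rising and 2 falling, while 10.6% of all tested genes rose. What length and level contribute to the difference was otherwise not tested.

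**Figure D4:**
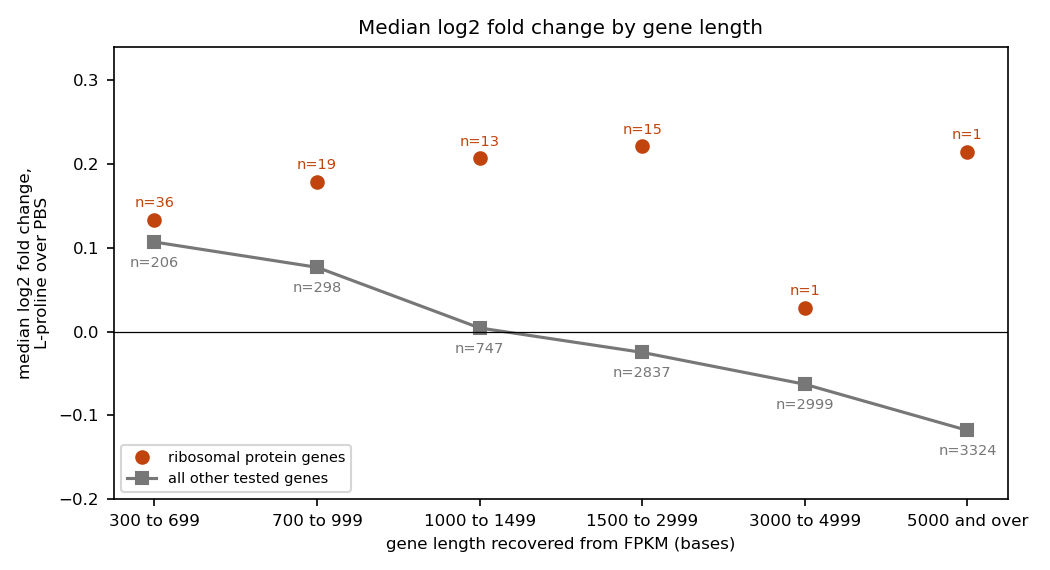
Median log2 fold change, L-proline over PBS, by recovered gene length in bases, for ribosomal protein genes (circles) and all other tested genes (squares), with the number of genes in each class. The other genes fall from 0.11 in the shortest class to -0.12 in the longest; ribosomal protein genes lie close to them at 300 to 699 bases and above them at 1500 to 2999 bases.

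Other TOP mRNAs, which share the pyrimidine start but encode translation factors and other proteins, gave 1 rise and 1 fall among 20 tested (5.00% each), against 7.50% and 12.1% of all tested genes, with a median log2 fold change of 0.12. Eef1g, a subunit of the elongation factor that reloads eEF1A, rose by 0.31 ± 0.09 (limma, adjusted p = 0.0411). Hnrnpa1, a splicing factor, was at 203, 223 and 182 FPKM in L-proline libraries and 365, 345 and 325 FPKM in PBS libraries, and it fell by 0.77 (SE 0.09; limma, adjusted p = 0.00132). Tpt1, a growth-related protein and a classical TOP mRNA, was at 2945 ± 88.7 FPKM in L-proline and 2545 ± 121 FPKM in PBS (SD, n = 3 each; 0.21 ± 0.07; limma, adjusted p = 0.0561).

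Ribosome biogenesis genes, which transcribe rRNA and assemble the subunits, gave 6 rises (12.5%) and 3 falls (6.25%) among 48 tested, against 7.50% and 12.1% of all tested genes, with a median log2 fold change of 0.11. Polr1c, a subunit shared by RNA polymerases I and III, was at 62.0 ± 3.50 FPKM in L-proline and 48.1 ± 1.73 FPKM in PBS (SD, n = 3 each) and rose by 0.36 ± 0.07 (limma, adjusted p = 0.0110). Rrn3, the initiation factor of RNA polymerase I, was at 23.8 ± 1.26 FPKM in L-proline and 18.1 ± 0.863 FPKM in PBS and rose by 0.38 ± 0.08 (limma, adjusted p = 0.0111). Sbds, which frees the large subunit from its last assembly factor, was at 19.3 ± 1.40 FPKM in L-proline and 26.9 ± 0.256 FPKM in PBS (-0.46 ± 0.08; limma, adjusted p = 0.00578). Rrp1b, a nucleolar protein, was also lower in L-proline (-0.36 ± 0.08; limma, adjusted p = 0.0179).

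Of 28 tested regulators of ribosomal protein output (MYC, mTORC1 and TOP mRNA binding), 6 rose (21.4%) and 2 fell (7.14%), against 7.50% and 12.1% of all tested genes, with a median log2 fold change of 0.03. Sesn2, a leucine sensor that restrains mTORC1, was at 16.9, 20.2 and 19.5 FPKM in L-proline libraries and 9.73, 11.8 and 11.6 FPKM in PBS libraries (0.72 ± 0.10; limma, adjusted p = 0.00304). Mxd1, which competes with MYC for its partner MAX, was at 5.31 ± 0.536 FPKM in L-proline and 2.85 ± 0.437 FPKM in PBS (SD, n = 3 each; 0.71 ± 0.11; limma, adjusted p = 0.00496). Rragc, a GTPase that brings mTORC1 to the lysosome, rose by 0.31 ± 0.07 and Eif4ebp2, a repressor of cap-dependent translation under mTORC1, fell by 0.34 with an SE of 0.07 (limma, adjusted p = 0.0171 for each). Myc, named for its role as an activator of ribosomal protein genes after its values were seen, was at 24.6 ± 1.33 FPKM in L-proline and 30.7 ± 0.963 FPKM in PBS (-0.31 ± 0.07; limma, adjusted p = 0.0212).

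The surveillance and p53 list gave 2 rises (15.4%) and 1 fall (7.69%) among 13 tested, against 7.50% and 12.1% of all tested genes, with a median of -0.05. Mdm2, the ligase bound by RPL5, RPL11 and RPL23, was at 42.8, 35.6 and 33.5 FPKM in L-proline libraries and 27.8, 23.8 and 28.7 FPKM in PBS libraries (0.46 ± 0.11; limma, adjusted p = 0.0241). Zfp598, which marks collided ribosomes with ubiquitin, rose by 0.38 ± 0.08 (limma, adjusted p = 0.0126). Ltn1, the ligase that clears stalled chains from the large subunit, was at 5.09 ± 0.846 FPKM in L-proline and 7.56 ± 0.698 FPKM in PBS (SD, n = 3 each; -0.50 ± 0.12; limma, adjusted p = 0.0256). Usp10, a deubiquitinase of small subunit proteins, stood at -0.25 ± 0.09 on the log2 scale (limma, adjusted p = 0.0838).

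Mitochondrial ribosomal proteins, which serve the separate ribosome of mitochondria, gave 2 rises (2.56%) and 3 falls (3.85%) among 78 tested, against 7.50% and 12.1% of all tested genes, with a median log2 fold change of 0.04. Mrps21 and Mrps18c rose by 0.47 ± 0.11 and 0.32 ± 0.08 (limma, adjusted p = 0.0198 and 0.0234). Mrps6 and Mrpl39 had log2 fold changes of -0.56 ± 0.13 and -0.27 ± 0.07 (limma, adjusted p = 0.0215 and 0.0338). The cytosolic median of 0.18 and the mitochondrial median of 0.04 are set side by side and their difference was not tested.

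**Figure D5:**
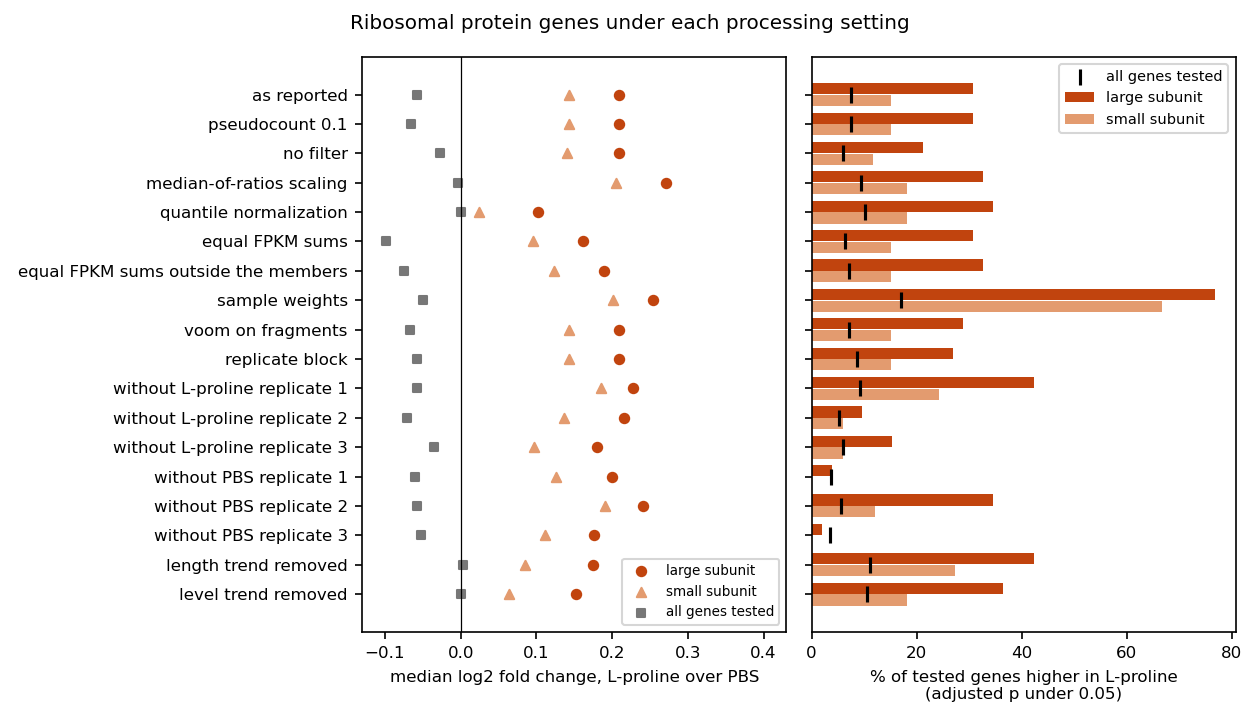
Left, median log2 fold change, L-proline over PBS, of large subunit genes, small subunit genes and all tested genes under each processing setting; right, percent of each set that rose at an adjusted p under 0.05. The subunit medians lie above 0 and above the median of all genes in every setting shown, with the large subunit ahead, while the percent that rose ranges from 1.92% to 76.9% for the large subunit.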

How the data were processed

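The authors deposited FPKM values, per the file headers, in 1 table of 14408 gene symbols by 6 libraries, so values were already scaled to gene length and library total. The labels' protocols give 1.5 µg of RNA per library, a NEBNext Ultra kit and paired-end NovaSeq reads. HISAT2, HTSeq 0.13.5 and GRCm39 are named, without roles, per the submitters' processing notes. Library totals were solved from 13 mitochondrial genes, and each gene's length as the smallest whole number giving at least 1 fragment for each value above 0, within 0.01 of whole, for 14407 genes; a length may thus be a fraction of the true one.

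Groups came from sample titles. L-proline was compared with PBS by limma 3.58.1 in R 4.3.3 on log2(FPKM + 1), with empirical Bayes and a mean-variance trend, two-sided, for 10500 genes with a mean of at least 1 FPKM, adjusted by Benjamini-Hochberg at 0.05. Fold changes on this scale understate those of low genes. The fit was tested on simulated data in which the spread was drawn separately for each gene. Its pass mark was set on changes larger than the rises described here. That check therefore does not cover small changes or a spread shared across genes.

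Named genes are untested members, members past the threshold, the 5 highest and 3 lowest per subunit by level, the 4 highest and 4 lowest by fold change, the small lists, and up to 4 genes with the smallest p per other list; some of these are not reported here. Members, lists and tests were chosen with earlier results of these data known. Length and level classes, and the removal of their trends (lowess, span 0.3), were chosen after seeing the data. Other alternatives were a pseudocount of 0.1, no filter, 4 other scalings, sample weights, voom on fragments, a replicate block and leaving out each library. Promoter sequences came from RefSeq (GRCm38.p6), whose gene table also matched 14145 symbols by name.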

Additional observations from a re-analysis of the deposited data

How the results depend on the processing

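Both subunits kept a positive median with the large subunit ahead under all 17 alternatives. The count of rising genes was 21, and ran from 1 to 30 when 1 library was left out (large subunit 1 to 22, of 16; small subunit 0 to 8, of 5). The gap between the subunit medians was then 0.042 to 0.083, of 0.066, and calls over all genes 870 to 2762, of 2056. Sample weights, which gave PBS 3 a weight of 5.57, raised the rising count to 62 (40 large and 22 small) and all calls to 4671, with a gap of 0.053. Quantile normalization lowered the median of the set to 0.073, with 2 falling genes. With the length or the level trend removed 2 genes fell and the gap was 0.091 or 0.089, and 9 small subunit genes rose after the length correction. No filter gave 15 rising genes and 1 falling, with 5.95% of all genes rising. The cause of these shifts was not tested.

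These genes changed direction. With median-of-ratios scaling Rpl36al was 0.0044, Rpl38 0.034 and Rps29 0.014. With quantile normalization Rpl12 was -0.12, Rpl41 -0.058, Rps12 -0.028, Rps15 -0.014, Rps20 -0.029, Rps23 -0.027 and Rps3a1 -0.048. With equal FPKM sums Rpl12 was -0.022, Rps12 -0.017, Rps20 -0.018 and Rps3a1 -0.034, and Rps3a1 was -0.0074 with sums outside the set. With sample weights Rpl21 was -0.034 and Rpl36al 0.056. With the length trend removed Rpl12 was -0.052 and Rps3a1 -0.023, and with the level trend removed Rpl12 was -0.054, Rps12 -0.027 and Rps3a1 -0.045. Leaving out 1 library gave -0.017 to 0.090 for Rpl12, -0.080 to 0.0068 for Rpl38, -0.016 to 0.075 for Rps12, -0.0050 to 0.067 for Rps20 and -0.035 to 0.041 for Rps3a1.

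The replicate block gave 19 rising genes and 1 falling (14 large, 5 small), with 8.65% of all genes rising. Same-numbered libraries correlated at 0.65, 0.42 and -0.35 in their deviations from group means, so the numbers were not taken as pairs. Pairs within a group differed by more than counting noise (chi-square per degree of freedom 8.08 to 81.9). With 3 libraries per group, a gene that did not pass may still have changed.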
